A study of Homo sapiens with 6 samples.

Results

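The mitochondrial ribosomal protein genes are those whose symbols begin with MRPL or MRPS and a number, without hyphenated read-through genes. The annotation holds 78 such protein-coding genes, and 76 of them had transcripts in the deposited tables (48 MRPL and 28 MRPS). MRPL45 and MRPS21 were not analysed here. All 76 passed the minimum mean count of 50 over the 6 libraries, so none was lost to it. The lowest mean count was 253, for MRPS36, and no gene of the set lay just outside the limit. They are 76 of 11909 genes measured in the series.

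J82, an established human bladder cancer cell line, was used as a tet-ZFP36L1 line and a tet-control line. The tet-ZFP36L1 line overexpresses ZFP36L1 under doxycycline, and ZFP36L1 is an RNA-binding protein that binds AU-rich elements of 3' untranslated regions and promotes mRNA decay. Each line was sequenced without doxycycline (0 h) and after 6 and 24 h of doxycycline, given to both lines at 1 µg/mL, with 1 library in each of the 6 groups. The labels do not say what the tet-control construct carries or whether a line is 1 clone.

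The mitochondrial ribosome makes the 13 proteins that mitochondrial DNA encodes, all of them subunits of the respiratory chain and the ATP synthase. Its RNAs come from mitochondrial DNA, but its proteins are encoded in the nucleus, made in the cytosol and imported. The large (MRPL) subunit forms peptide bonds and the small (MRPS) subunit decodes the mRNA. Some proteins are kin of bacterial ribosomal proteins and others are found in mitochondria alone. Doxycycline is a tetracycline, a class of antibiotics that bind the bacterial ribosome and can also inhibit mitochondrial protein synthesis, and the doxycycline libraries of both lines carry it.

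The libraries held 19605308 to 20245037 counts in genes, of which the 76 genes took 86150 to 112815. Values are CPM (counts per 1000000) scaled by TMM, and differences are on the log2(CPM + 0.5) scale. With 1 library per group there is no replicate check and no test. The 95% intervals given are computed from the counts alone and cover counting error only, without the spread between cultures. The reads also carry no molecular identifiers and may repeat a molecule, which the intervals do not allow for. ZFP36L1 itself had 220 CPM without doxycycline, 3127 after 6 h and 3131 after 24 h in the tet-ZFP36L1 line, and 234, 223 and 206 CPM in the tet-control line, which fits the labels. The leukocyte marker PTPRC was at 0 to 0.16 CPM in the 6 libraries. The epithelial keratin KRT8 had 467 to 753 CPM in tet-ZFP36L1 and 259 to 350 CPM in tet-control cells, and KRT18 had 488 to 764 CPM in tet-ZFP36L1 and 364 to 454 CPM in tet-control cells. The mesenchymal filament gene VIM had 1340, 1488 and 787 CPM in tet-ZFP36L1 cells at 0, 6 and 24 h, against 723, 800 and 877 CPM in tet-control cells, a change from 0 h to 24 h that differed by -1.05 (log2) between the lines. The part of these markers' differences in the results was not tested. The tet-ZFP36L1 24 h library stood apart in breadth, with 15695 genes at 10 counts or more against 14515 to 14956 in the others, and in its TMM factor, which was 1.12 against 0.941 to 1.01.

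Before doxycycline, most mitochondrial ribosomal protein mRNAs were lower in tet-ZFP36L1 than in tet-control cells. At 6 h the median was level between the lines, with single genes on both sides. At 24 h tet-ZFP36L1 cells were lower again and by more. The median log2 ratio of tet-ZFP36L1 over tet-control was -0.27 without doxycycline, -0.003 at 6 h and -0.50 at 24 h, while over all measured genes it was -0.003, -0.01 and -0.05. The 24 h ratio was -0.31 with plain CPM and -0.28 with deposited TPM, where that of all genes was 0.14 under each. Relative to all genes it was -0.45 here, -0.45 with plain CPM and -0.42 with TPM. Below 0 lay 67 of the 76 genes at 0 h, 39 at 6 h and 73 at 24 h. A counting interval wholly below 0 was found for 58 genes at 0 h (76.3%, against 34.1% of all genes) and for 71 at 24 h (93.4%, against 43.5% of all). In bulk RNA, fewer cells of a kind and less RNA per cell cannot be told apart.

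A gene was counted as higher or lower when the change was at least 1.5-fold (0.585 on the log2 scale). At 0 h, 6 of the 76 genes were lower by this measure (7.98% of all genes were) and 0 were higher (10% of all). At 6 h, 5 were lower (15.3% of all) and 3 were higher (12.4% of all). At 24 h, 33 were lower, which is 43.4% of the set against 20.3% of all genes, and 0 were higher (18.3% of all). With plain CPM 19 were lower (13.8% of all) and with deposited TPM 16 (13.5% of all), and 0 were higher under both. By at least 2-fold, 6 genes were lower at 24 h, or 7.89% of the set against 8.32% of all genes. All 3 tet-ZFP36L1 values lay below all 3 tet-control values for 25 genes, or 32.9% of the set against 17.5% of all genes. The opposite order was found for 1 gene, MRPL53, against 16.3% of all genes. The tet-ZFP36L1 24 h library was the lowest of the 6 for 48 genes, or 63.2% against 29.1% of all genes.

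**Figure D1:**
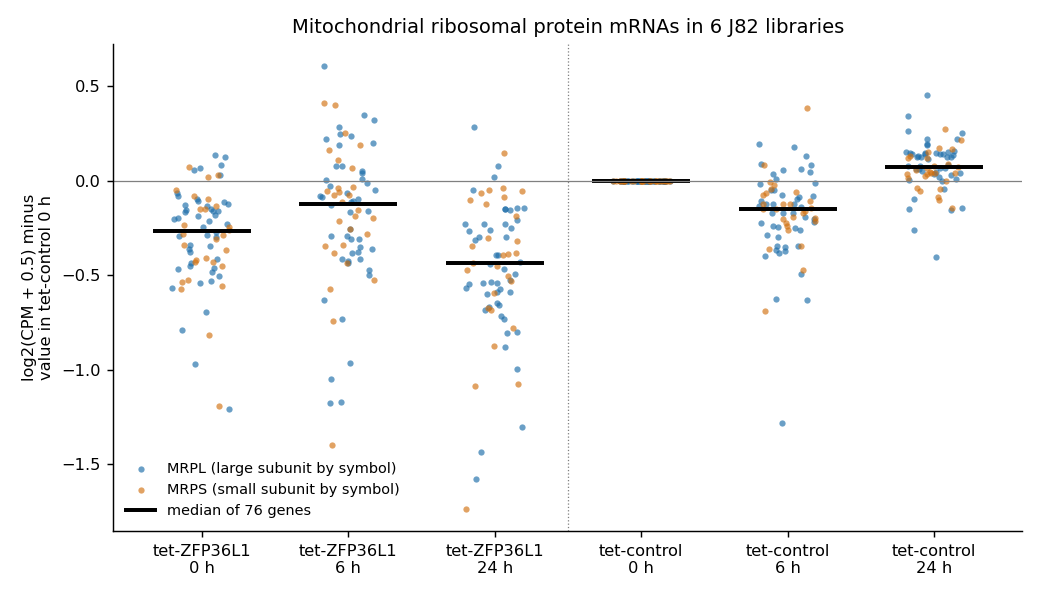
Each point is 1 of the 76 genes in 1 library, as log2(CPM + 0.5) minus its value in the tet-control 0 h library, which is therefore 0. Black bars mark the medians, which are lowest in the tet-ZFP36L1 24 h library.

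A similar picture was seen per unit of length. The summed level of the 76 genes in TPM (transcripts per 1000000) was 6984, 7290 and 6623 at 0, 6 and 24 h in tet-ZFP36L1 cells, against 8325, 7163 and 8419 in tet-control cells. The MRPL genes summed to 4780, 4946 and 4462 TPM in tet-ZFP36L1 cells and to 5629, 4842 and 5706 TPM in tet-control cells. The MRPS genes summed to 2204, 2344 and 2161 TPM in tet-ZFP36L1 cells and to 2696, 2320 and 2713 TPM in tet-control cells. In both subunits the tet-ZFP36L1 cells were highest at 6 h, the time at which the tet-control cells were lowest.

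Single genes spanned a wide range of levels. MRPL51, a mitochondria-specific protein of the large subunit, had the highest mean level, with 271, 365 and 282 TPM at 0, 6 and 24 h in tet-ZFP36L1 cells and 281, 290 and 319 TPM in tet-control cells. MRPL3 and MRPL9, both kin of bacterial proteins, followed with means of 228 and 202 TPM over the 6 libraries. Their order did not hold in every library: at 6 h in tet-ZFP36L1 cells MRPL9 was at 247 and MRPL3 at 198 TPM. MRPL50, MRPL30 and MRPS31 had the lowest means, of 12.9, 20.3 and 24.9 TPM. In the large subunit MRPL50 held 11.1 to 15.1 TPM in all 6 libraries.

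The change from 0 h within each line gives these shifts their direction. At 6 h the median change was 0.12 in tet-ZFP36L1 cells, with 53 of 76 genes above 0, and -0.15 in tet-control cells, with 64 below 0. At 24 h it was -0.13 in tet-ZFP36L1 cells, with 56 below 0, and 0.07 in tet-control cells, with 61 above 0. The median over all genes was between -0.02 and -0.003 in each of these comparisons. The tet-ZFP36L1 change at 24 h depends on the scaling: with plain CPM its median was 0.02 while that of all genes was 0.13, so relative to all genes it was -0.11 under either scaling.

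By the 1.5-fold measure few of these changes were large. At 6 h in tet-ZFP36L1 cells, MRPL1, MRPL46, MRPS25 and MRPS31 rose (9.09% of all genes rose) and MRPL34 and MRPL42 fell (15.6% of all fell). At 6 h in tet-control cells, MRPL30, MRPL34, MRPL41 and MRPS34 fell (7.73% of all) and 0 genes rose (7.46% of all). MRPL34, kin of a small bacterial large-subunit protein, thus fell in both lines, with changes of -0.68 in tet-ZFP36L1 and -0.63 in tet-control cells. At 24 h in tet-ZFP36L1 cells, 9 genes fell (17.1% of all), namely MRPL13, MRPL15, MRPL33, MRPL39, MRPL42, MRPS23, MRPS30, MRPS35 and MRPS36, and 0 rose (11.8% of all). At 24 h in tet-control cells 0 genes fell (1.92% of all) and 0 rose (1.6% of all). Genes named in this paragraph outside the naming rule were listed after their values were seen.

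The induction difference is the change from 0 h in tet-ZFP36L1 cells minus that in tet-control cells. At 6 h its median over the 76 genes was 0.31, with 65 genes above 0, against -0.01 over all genes. At 24 h it was -0.21, with 60 genes below 0, against -0.02 over all genes. Both times share the 0 h libraries of both lines. The counting interval lay wholly above 0 for 57 genes at 6 h (75%, against 29.5% of all genes) and wholly below 0 for 46 at 24 h (60.5%, against 36.7% of all). A difference above 0 at 6 h and below 0 at 24 h was found for 49 genes, or 64.5% of the set against 15.4% of all genes, and the reverse for 0 genes. For 74 of 76 genes the value at 24 h was below that at 6 h, and the share of all genes with this order was not computed.

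Most of the individual differences were under 1.5-fold. The share of the set past 1.5-fold was near that of all genes for higher at 6 h and lower at 24 h, and below it for the opposite directions. At 6 h, 7 genes were higher, or 9.21% of the set against 7.02% of all genes, and 1 was lower against 14.3% of all. At 24 h, 12 genes were lower, or 15.8% of the set against 17.4% of all genes, and 0 were higher against 13.9% of all. The genes higher at 6 h were MRPL12, MRPL30, MRPL47, MRPL55, MRPS7, MRPS18B and MRPS31. The genes lower at 24 h were MRPL13, MRPL30, MRPL33, MRPL39, MRPL42, MRPL49, MRPL54, MRPS23, MRPS30, MRPS33, MRPS35 and MRPS36. With plain CPM, 6 genes were lower (12.1% of all) and 1 was higher (20.7% of all) at 24 h, and with deposited TPM 5 were lower (13.4% of all) and 1 was higher (18.9% of all). With plain CPM the 24 h median of the set was -0.04 while that of all genes was 0.15. Relative to all genes it was -0.19 under both scalings.

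**Figure D2:**
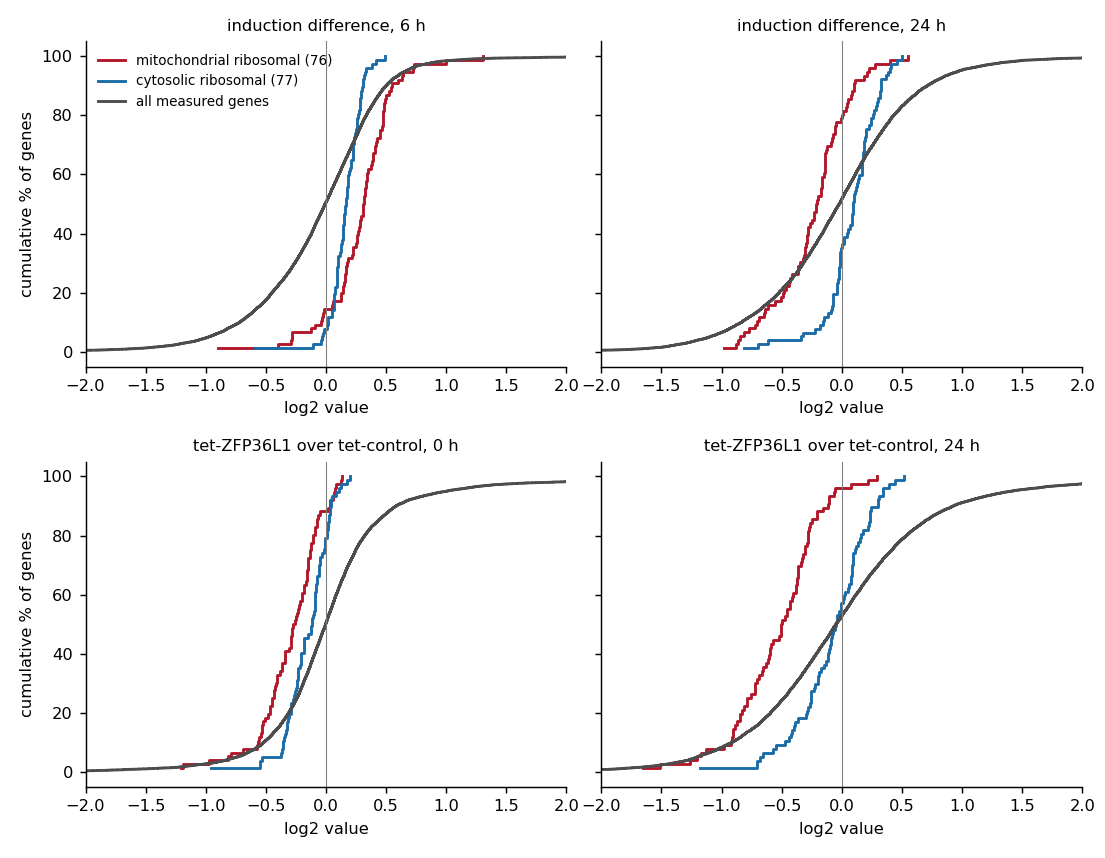
Cumulative percentage of genes against the log2 value for the 76 mitochondrial ribosomal protein genes, 77 cytosolic ribosomal protein genes and all measured genes. The mitochondrial set lies right of all genes in the induction difference at 6 h (median 0.31) and left of them in the ratio of the lines at 0 h (median -0.27) and 24 h (median -0.50).

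The large and small subunits had medians close to each other. At 6 h the median induction difference was 0.31 for the 48 MRPL genes and 0.33 for the 28 MRPS genes. At 24 h it was -0.23 for MRPL and -0.16 for MRPS genes, where the typical half-width of a gene's counting interval was 0.17, and with plain CPM the MRPS median was 0.01. Past 1.5-fold at 24 h, 7 MRPL genes (14.6%) and 5 MRPS genes (17.9%) were lower, against 17.4% of all genes. In structures of the human mitochondrial ribosome the products of MRPS30 and MRPS18A sit in the large subunit, and MRPS36 is a component of the 2-oxoglutarate dehydrogenase complex. Sorting the genes by structure gave 24 h medians of -0.23 for 50 large-subunit and -0.16 for 25 small-subunit genes. The ratio of the lines at 24 h was also alike, with medians of -0.50 for MRPL and -0.47 for MRPS genes.

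Medians of structural classes within the subunits were close to each other at 6 h and varied more at 24 h. In the large subunit, 30 kin of bacterial proteins had medians of 0.32 at 6 h and -0.21 at 24 h, and 20 mitochondria-specific proteins had 0.27 and -0.28. In the small subunit, all 15 measured kin of bacterial proteins lay above 0 at 6 h (median 0.34, range 0.05 to 0.60), and their 24 h median was -0.16. The 10 mitochondria-specific small-subunit genes had medians of 0.30 at 6 h and 0.01 at 24 h, and they held both the largest positive 24 h value of the set (MRPS31, 0.55) and the third lowest (MRPS35, -0.86). The 3 stalk genes, whose products recruit translation factors, had medians of 0.35 and -0.05. The 7 genes of the central protuberance, a landmark of the large subunit that faces the small subunit's head, had 0.32 and -0.28, and 7 genes of the polypeptide exit site had 0.34 and -0.22. The exit-site genes were split at 6 h, with 3 of 7 below 0 and a range of -0.28 to 0.72.

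**Figure D3:**
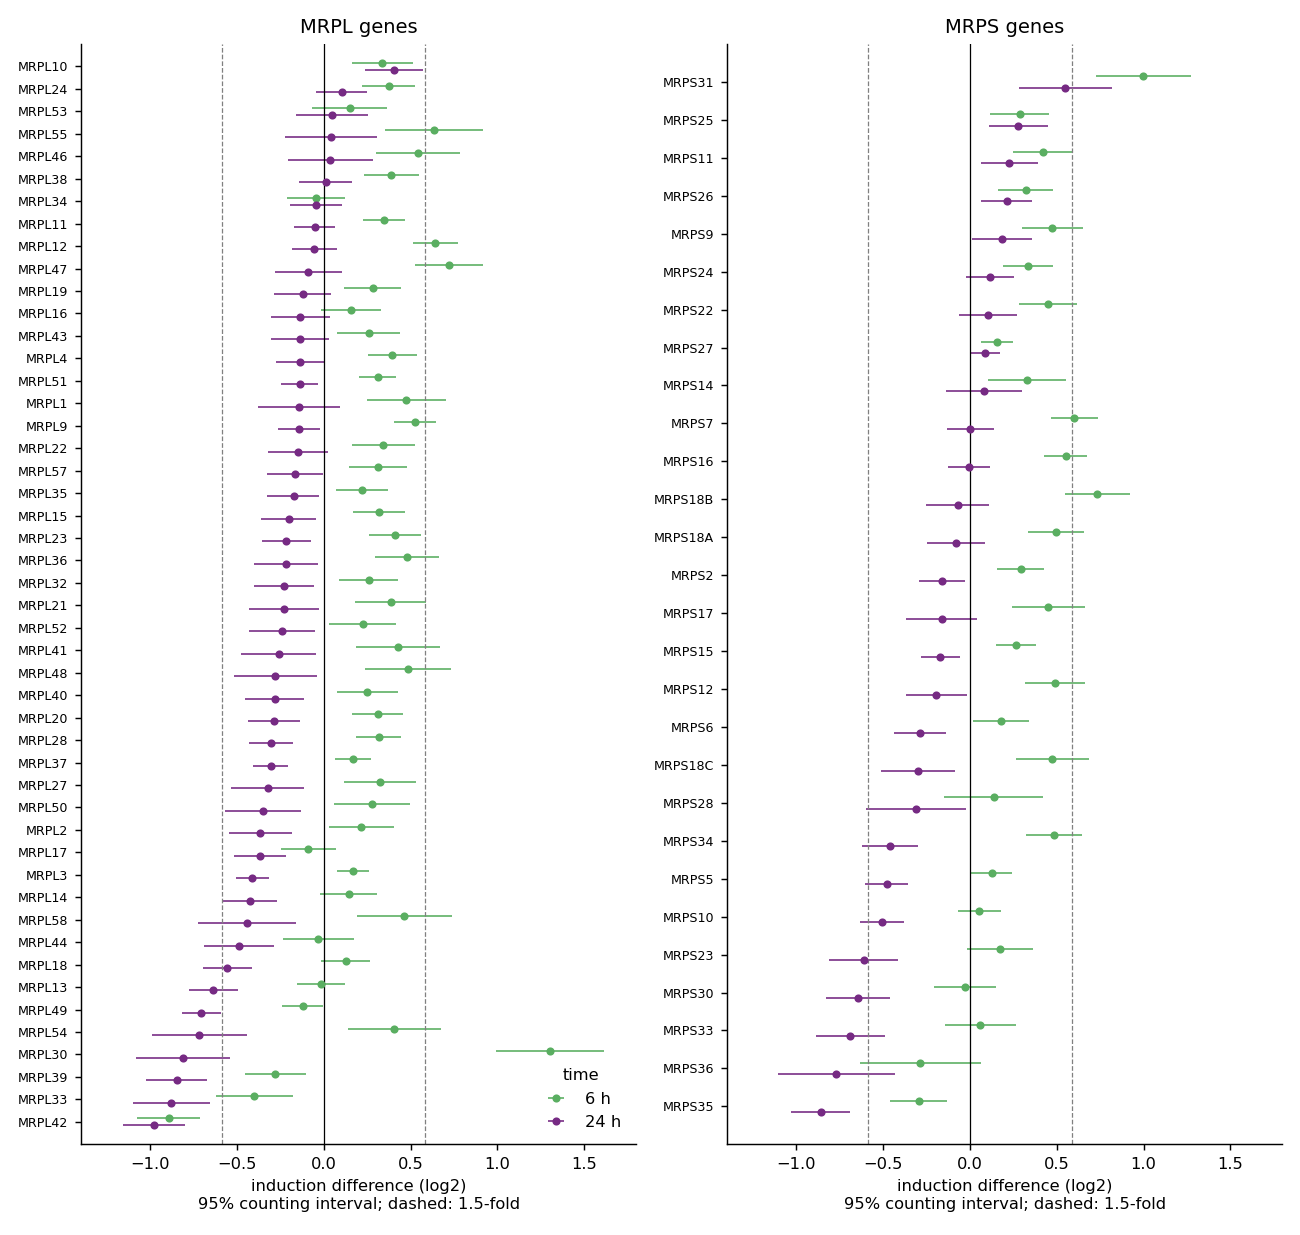
Induction difference (log2) of every MRPL and MRPS gene at 6 h (green) and 24 h (purple) with 95% counting intervals, sorted by the 24 h value. Dashed lines mark 1.5-fold, which 7 genes exceed upward at 6 h and 12 downward at 24 h.

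MRPL42 was the lowest of the set at both times and the one gene past 1.5-fold in the same direction at both. It encodes a mitochondria-specific large-subunit protein and lies at chr12:93467488-93516213 on the plus strand of GRCh38. It had 57.2, 29.6 and 26.9 CPM in tet-ZFP36L1 cells at 0, 6 and 24 h, against 67.1, 64.96 and 62.8 CPM in tet-control cells. The tet-ZFP36L1 libraries with doxycycline were thus lower than the other 4. Its induction difference was -0.90 at 6 h (interval -1.08 to -0.72) and -0.98 at 24 h (interval -1.16 to -0.80). Each of its 3 coding transcripts with reads had fewer estimated counts at 6 and 24 h than at 0 h in tet-ZFP36L1 cells. In tet-control cells they differed: MRPL42-202 had 406, 301 and 270 estimated counts, MRPL42-206 had 249, 193 and 267, and MRPL42-203 was above its 0 h value at both times. MRPL42-203, the most abundant of them per length, had 328, 132 and 81.9 estimated counts at 0, 6 and 24 h in tet-ZFP36L1 cells and 230, 332 and 289 in tet-control cells.

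MRPL33, MRPS35, MRPL39 and MRPS36 followed MRPL42 at 6 h, and each was lower still at 24 h. MRPL33, kin of a bacterial large-subunit protein, had 36.3, 27.1 and 21.8 CPM in tet-ZFP36L1 cells at 0, 6 and 24 h and 33.3, 32.9 and 37.1 CPM in tet-control cells. Its induction difference was -0.40 at 6 h and -0.88 at 24 h (interval -1.10 to -0.66). MRPS35, a mitochondria-specific small-subunit protein, had 60.4, 52.2 and 36.2 CPM in tet-ZFP36L1 cells and 62.4, 66.3 and 68.4 CPM in tet-control cells. In these genes the tet-ZFP36L1 24 h library was the lowest of all 6, and the lines were close at 0 h. MRPL39, mitochondria-specific and of the large subunit, had 54.0, 47.3 and 35.6 CPM in tet-ZFP36L1 cells and 51.8, 55.3 and 61.9 CPM in tet-control cells. MRPS36 had 13.7, 9.90 and 8.83 CPM in tet-ZFP36L1 cells and 14.5, 12.9 and 16.3 CPM in tet-control cells. Its 6 h difference of -0.29 has an interval (-0.63 to 0.06) that includes 0, while the 24 h difference was -0.77.

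MRPS31 was highest in tet-ZFP36L1 cells under doxycycline at both times. It encodes a mitochondria-specific small-subunit protein first described as an autoantigen in diabetes. It had 18.1, 28.8 and 24.1 CPM in tet-ZFP36L1 cells at 0, 6 and 24 h and 21.7, 17.01 and 19.6 CPM in tet-control cells. Both doxycycline libraries of tet-ZFP36L1 cells were above all other libraries. The induction difference was 1.00 at 6 h (interval 0.72 to 1.27) and 0.55 at 24 h (interval 0.28 to 0.82).

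MRPL47, MRPS18B and MRPL12 were high at 6 h and near 0 at 24 h. MRPL47, a protein of the polypeptide exit site, had 37.1, 51.3 and 36.6 CPM in tet-ZFP36L1 cells at 0, 6 and 24 h and 44.9, 37.5 and 47.1 CPM in tet-control cells. Its difference was 0.72 at 6 h (interval 0.53 to 0.92) and -0.09 at 24 h. MRPL12, the stalk protein, had 75.4, 92.3 and 65.2 CPM in tet-ZFP36L1 cells and 131, 102 and 118 CPM in tet-control cells. It stayed lower in tet-ZFP36L1 cells in all 3 pairs of libraries, and the 6 h difference of 0.64 combined a change of 0.29 in tet-ZFP36L1 cells with one of -0.35 in tet-control cells. Of the 31-base words of its leading transcript, 67.2% also occur in another annotated gene, so its counts are uncertain.

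MRPS18B, 1 of 3 human relatives of the bacterial protein S18, had 41.3, 60.4 and 43.6 CPM in tet-ZFP36L1 cells at 0, 6 and 24 h and 45.3, 39.7 and 50.4 CPM in tet-control cells. It was the one gene whose leading transcript shifted share by at least 30 percentage points. The coding transcript MRPS18B-206 held 96.9%, 83.6% and 53.7% of the gene's estimated counts in tet-ZFP36L1 cells and 66.7%, 71.0% and 55.1% in tet-control cells. The non-coding MRPS18B-207 had 26.0, 191 and 436 estimated counts in tet-ZFP36L1 cells and 304, 209 and 447 in tet-control cells. At 24 h the lines were alike in this split, and the tet-ZFP36L1 0 h library was the one apart. With coding transcripts alone the 6 h difference was 0.42 and the 24 h difference -0.59.

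MRPL30, kin of a bacterial large-subunit protein, had the largest 6 h difference, and it came from the tet-control line. It had 17.7, 17.99 and 13.7 CPM in tet-ZFP36L1 cells at 0, 6 and 24 h and 24.3, 9.74 and 33.6 CPM in tet-control cells. The tet-control 6 h library was the lowest of the 6 and the tet-control 24 h library the highest. Its change at 6 h was 0.02 in tet-ZFP36L1 cells and -1.28 in tet-control cells, a difference of 1.303, and the 24 h difference was -0.81. The leading transcript is annotated as a target of nonsense-mediated decay, and 37.6% of its words occur in another gene. With coding transcripts alone the 6 h difference was -0.001 and the 24 h difference -2.91, and the coding transcript MRPL30-201 was listed at 0 estimated counts in all 3 tet-ZFP36L1 libraries and at 67.4, 0 and 270 in tet-control cells.

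Besides MRPS31, the genes with the highest 24 h differences were MRPL10, MRPS25, MRPS11 and MRPS26. MRPL10, which anchors the stalk, had 47.3, 57.0 and 65.7 CPM in tet-ZFP36L1 cells at 0, 6 and 24 h and 53.9, 51.2 and 56.4 CPM in tet-control cells, with a 24 h difference of 0.40 (interval 0.24 to 0.57). The mitochondria-specific MRPS25 had 38.8, 62.1 and 54.8 CPM in tet-ZFP36L1 cells and 57.4, 75.02 and 66.6 CPM in tet-control cells. It was above its 0 h value in every doxycycline library of both lines, by 0.67 and 0.49 in tet-ZFP36L1 cells and by 0.38 and 0.21 in tet-control cells. MRPS11 and MRPS26 had 24 h differences of 0.23 and 0.21.

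**Figure D4:**
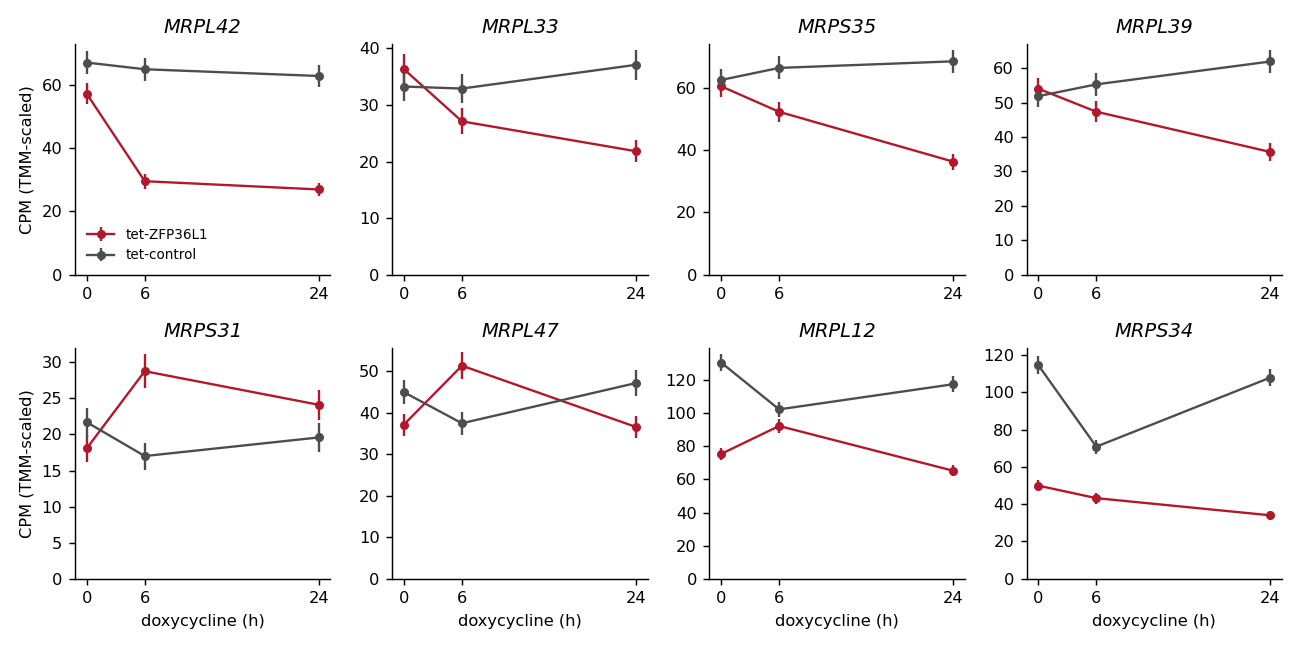
CPM of 8 genes against hours of doxycycline in tet-ZFP36L1 and tet-control cells, 1 library per point, with bars for the 95% counting interval. MRPL42 drops to 29.6 CPM at 6 h in tet-ZFP36L1 cells, and MRPS34 differs between the lines at 0 h.

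The largest gaps between the lines at 0 h were in MRPL28 and MRPS34, which lie near each other. MRPL28, kin of a bacterial large-subunit protein, is at chr16:366969-371289 and had 71.4, 72.9 and 60.8 CPM in tet-ZFP36L1 cells at 0, 6 and 24 h and 165, 136 and 174 CPM in tet-control cells. MRPS34, a mitochondria-specific small-subunit protein, is at chr16:1771890-1773155 and had 49.95, 43.2 and 34.0 CPM in tet-ZFP36L1 cells and 115, 70.8 and 108 CPM in tet-control cells. Every tet-ZFP36L1 value of both genes was below every tet-control value. Of 33 other measured genes within 1000 kb of MRPL28, 32 were also below 0 at 0 h, with a median log2 ratio of -1.11. Of 55 around MRPS34, 53 were below 0, with a median of -0.78. The windows around both genes overlap.

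Across the 72 genes with at least 5 measured neighbours, the ratio of the lines at 0 h followed that of the neighbours, with a Pearson r of 0.67 and a Spearman rho of 0.51. This is a description over genes of the same libraries, and the comparison was added after the values were seen. Without the 4 lowest genes at 0 h (MRPS34, MRPL28, MRPL15 and MRPS28) the median ratio over the others was -0.24. At the other end, MRPL13 and MRPL33 had the highest ratios at 0 h, of 0.13 each. Both were among the genes lower at 24 h by the induction difference. That difference equals the ratio of the lines at 24 h minus the ratio at 0 h, so a high 0 h ratio lowers it by construction.

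**Figure D5:**
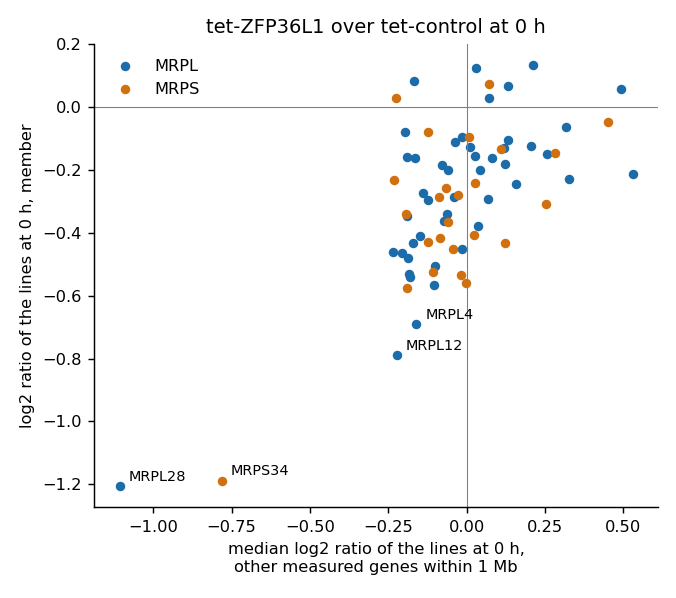
Log2 ratio of tet-ZFP36L1 over tet-control at 0 h for each of 72 genes against the median of its measured neighbours within 1000 kb. MRPL28 and MRPS34 lie apart at the lower left, with neighbour medians of -1.11 and -0.78.

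Since ZFP36L1 binds AU-rich elements, the 3' untranslated regions (3' UTRs) were searched for ATTTA and for TATTTAT, in DNA letters, on the sense strand, where TATTTAT contains ATTTA. The 74 genes with an annotated 3' UTR of at least 50 bases had a median length of 284 bases, against 867 over 10549 measured protein-coding genes. TATTTAT was found in 6 genes, or 8.11% against 29.1% of all, and ATTTA in 31, or 41.9% against 66.3%. The 6 genes with TATTTAT had median induction differences of 0.06 at 6 h and -0.44 at 24 h, and the other 68 had 0.32 and -0.20. The 31 genes with ATTTA had 0.26 and -0.32, and the 43 without it 0.34 and -0.18. Over all genes, those with TATTTAT had medians of -0.29 and -0.28 and those without it 0.10 and 0.06. The 3' UTRs with a motif were also longer. In the set their median length was 1673.5 bases with TATTTAT and 271.5 without it, and 450 with ATTTA and 256 without it. Over all genes it was 2189 bases with TATTTAT and 586.5 without it. Motif and length were not separated, and the part of either was not tested.

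All 5 genes lowest at 6 h held ATTTA in the 3' UTR searched, and 1 of them, MRPL33, held TATTTAT. Of the 5 highest at 6 h, 4 had a 3' UTR that was searched and 2 of these held ATTTA. MRPL30, 1 of the 2, was searched in MRPL30-201, which had no estimated counts in any tet-ZFP36L1 library. These tallies depend on the transcript chosen, and the genes were picked by their extreme values. The shorter motif was found in 41.9% of the set and 66.3% of all measured protein-coding genes searched. The longer motif was found in 8.11% and 29.1%. Whether the tallies differ from these shares was not tested. The sites of MRPL42 (transcript MRPL42-203, 3' UTR of 99 bases), the site of MRPL39 (MRPL39-202, 51 bases) and the TATTTAT of MRPL33 (MRPL33-201, 259 bases) are shown because these genes are among the lowest at both times. Positions count from 1 at the first base after the stop codon, and capitals mark the motif in GENCODE 29 transcripts. A match is a description of letters and not a site of binding.
MRPL42, 3' UTR base 29: gtacttttaaATTTAcatataattt
MRPL42, 3' UTR base 40: tttacatataATTTAgctaaaatga
MRPL42, 3' UTR base 91: taatgggggaATTTAacca
MRPL39, 3' UTR base 13: actttctaaaATTTAaatatgtata
MRPL33, 3' UTR base 201: gcatcacattTATTTATctttctgggt
None of the 3 MRPL42 matches is flanked by the T on each side that would make TATTTAT. A longer MRPL42 transcript, MRPL42-206, was the leading one by estimated counts over the 6 libraries but not the one searched. It held 15.9% to 37.2% of the gene's estimated counts and did not lead in every library. In tet-control cells MRPL42-202 at 0 h (406 against 249) and MRPL42-203 at 6 h (332 against 193) had more. MRPL42-206 has a 3' UTR of 14992 bases with 2 copies of TATTTAT and 41 of ATTTA.

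Promoters of 67 of the 76 genes were in the RefSeq table (GRCh38.p14, 250 bases before to 50 after the start) and were searched on both strands for 4 motifs. The ETS core CCGGAAG was found in 28, or 41.8%, against 21.3% of 8898 measured protein-coding genes and 10.7% of all 27305 promoters. The YY1 core AAGATGGC was found in 19, or 28.4%, against 5.92% and 3.03%. The NRF1 core GCGCATGC was found in 6, or 8.96%, against 6.02% and 3.27%, and the SP1 box GGGCGG in 41, or 61.2%, against 72.5% and 44.6%. The 4 motifs do not contain one another. Of 20 YY1 matches, 14 lay at or after the start and 16 read forward.

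Genes with and without a promoter motif had similar medians. Genes with the ETS core had median induction differences of 0.32 at 6 h and -0.28 at 24 h, and those without it 0.29 and -0.16. Genes with the YY1 core had 0.34 and -0.15, and those without it 0.31 and -0.22. Promoters of 3 genes are shown with the matches in capitals, because MRPL47 and MRPS18B were among the highest at 6 h and MRPL42 was the lowest, and all of them hold a YY1 core (in MRPL47 on the opposite strand, as GCCATCTT). Other genes farthest up (MRPL30, MRPS31 and MRPL12) or down (MRPL33, MRPS35 and MRPL39) at 6 h hold no YY1 core. The MRPL47 promoter (chr3:179604589-179604888, minus strand) also holds the ETS core, and that of MRPS18B (chr6:30617590-30617889, plus strand) the NRF1 core. The MRPL42 promoter (chr12:93467264-93467563, plus strand) holds the YY1 core alone of the 4. Each is printed 5′ to 3′ on the gene's strand.
MRPL47: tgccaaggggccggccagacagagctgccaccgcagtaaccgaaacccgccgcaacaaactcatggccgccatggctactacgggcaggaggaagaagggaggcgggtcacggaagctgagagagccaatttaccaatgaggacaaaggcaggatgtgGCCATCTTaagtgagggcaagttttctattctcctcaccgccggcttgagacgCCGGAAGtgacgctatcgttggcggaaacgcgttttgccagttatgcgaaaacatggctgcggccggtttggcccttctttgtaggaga
MRPS18B: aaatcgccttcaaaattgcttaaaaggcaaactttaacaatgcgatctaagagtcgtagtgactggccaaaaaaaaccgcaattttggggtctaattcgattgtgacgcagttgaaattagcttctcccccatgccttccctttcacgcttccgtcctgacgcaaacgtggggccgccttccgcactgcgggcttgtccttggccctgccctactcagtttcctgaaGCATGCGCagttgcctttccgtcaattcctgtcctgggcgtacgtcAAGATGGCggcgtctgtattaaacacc
MRPL42: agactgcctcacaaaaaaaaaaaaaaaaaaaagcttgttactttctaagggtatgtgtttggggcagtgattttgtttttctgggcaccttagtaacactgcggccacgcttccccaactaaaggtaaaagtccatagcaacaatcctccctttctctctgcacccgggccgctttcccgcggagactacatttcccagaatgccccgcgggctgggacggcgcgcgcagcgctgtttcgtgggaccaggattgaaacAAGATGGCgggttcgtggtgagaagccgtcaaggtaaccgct

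The rest of the mitochondrial translation machinery was measured in lists that are not part of the set. Their counts past 1.5-fold in the induction difference stand against 7.02% of all genes higher and 14.3% lower at 6 h, and 13.9% higher and 17.4% lower at 24 h. Mitochondrial ribosomal proteins with other symbols had medians over 5 genes of 0.30 at 6 h and -0.28 at 24 h, and CHCHD1 was higher by 0.84 at 6 h. DAP3, a small-subunit GTP-binding protein, had 141, 149 and 110 CPM in tet-ZFP36L1 cells at 0, 6 and 24 h and 151, 169 and 164 CPM in tet-control cells. Of 25 measured assembly and rRNA modification genes, 5 were higher and 1 lower past 1.5-fold at 6 h, and 3 were higher and 3 lower at 24 h. MTG2 (0.71), a GTPase of large-subunit assembly, and DDX28 (0.67), an RNA helicase, were the highest at 24 h. C1QBP, an assembly factor, was lowest, with 221, 149 and 103 CPM in tet-ZFP36L1 cells and 361, 320 and 364 CPM in tet-control cells.

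Of 18 mitochondrial translation factors, 4 were lower and 1 was higher at 24 h, or 22.2% and 5.56%. GFM2, the elongation factor that helps recycle mitochondrial ribosomes, had 70.8, 37.5 and 35.2 CPM in tet-ZFP36L1 cells at 0, 6 and 24 h and 69.6, 66.1 and 63.8 CPM in tet-control cells, a course like that of MRPL42. The 20 mitochondrial aminoacyl-tRNA synthetases had medians of 0.32 at 6 h and 0.13 at 24 h. IARS2, the isoleucine enzyme, had the largest difference of them (2.15 at 24 h), with 5.30, 25.7 and 27.6 CPM in tet-ZFP36L1 cells and 30.98, 20.7 and 33.7 CPM in tet-control cells, so that the tet-ZFP36L1 0 h library was the low one. Among 12 genes of mitochondrial transcription and RNA processing, 2 were higher and 1 was lower at 24 h, and POLRMT, the mitochondrial RNA polymerase, was among the higher (0.70). Of 9 measured regulators of nuclear mitochondrial genes, 2 were lower at 24 h (22.2%), the transcription factors NRF1 (-0.68) and GABPA (-0.66). The 9 had median induction differences of -0.223 at 6 h and -0.315 at 24 h, with 7 below 0 at each time. At 6 h their median thus lay on the other side of 0 from that of the set (0.31).

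The 13 mRNAs encoded in mitochondrial DNA followed another course. At 6 h, 13 of 13 rose by at least 1.5-fold in tet-ZFP36L1 cells and 11 of 13 in tet-control cells, with median changes of 0.98 and 0.89. Their summed level was 22920, 39500 and 37140 TPM at 0, 6 and 24 h in tet-ZFP36L1 cells and 24180, 45830 and 22380 TPM in tet-control cells. At 24 h it was thus still high in tet-ZFP36L1 cells and back near the 0 h level in tet-control cells. The median induction difference was -0.09 at 6 h and 0.72 at 24 h, when 10 of 13 were higher past 1.5-fold and 0 were lower. At 24 h these mRNAs and the mitochondrial ribosomal protein mRNAs therefore had medians on opposite sides of 0.

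Cytosolic ribosomal protein genes, 77 of them, had a median induction difference of 0.16 at 6 h and 0.10 at 24 h, and 3 were lower and 0 higher past 1.5-fold at 24 h. The 75 nuclear-encoded respiratory chain subunits had medians of 0.21 and -0.15, with 17 lower (22.7%, against 17.4% of all genes) and 0 higher at 24 h. In the ratio of the lines at 24 h the medians were -0.50 for the mitochondrial ribosomal set, -0.31 for the respiratory chain subunits and -0.04 for the cytosolic ribosomal proteins. These lists share all 6 libraries, and no test of the difference between them was made. The tet-ZFP36L1 24 h library, on which the 24 h values rest, is the one that stood apart in breadth and scaling, and the part of this in the result was not tested beyond the scalings given. The 6 h values rest in part on the tet-control 6 h library, which had the lowest TMM factor (0.941). In tet-control cells 7.73% of all genes fell and 7.46% rose past 1.5-fold at 6 h, against 1.92% and 1.6% at 24 h. The part of this in the 6 h result was not tested.

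Uncertain counts touch few of these statements. In 8 genes (MRPS24, MRPS18C, MRPL46, MRPL38, MRPL12, MRPS18A, MRPL53 and MRPS28) at least 50% of the 31-base words of the leading transcript also occur in another gene, and 25 genes share none. The leading transcript was annotated as coding for 72 of 76 genes. The 24 h difference also varied with expression level: the median difference of all genes was 0.23 in the lowest quintile of mean count and -0.21 in the highest. The set had 7, 21, 37 and 11 genes in the upper 4 quintiles, with medians of -0.44, -0.26, -0.16 and -0.17 at 24 h, against 0.10, -0.04, -0.09 and -0.21 over all genes there. In the highest quintile the set was thus no lower than the other genes.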

How the data were processed

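Expression was measured by BGISEQ-500 sequencing of RNA from 6 J82 cultures. Tools named in the submitters' processing notes are kallisto and DESeq2, with build hg19, and no roles are given. The deposited tables give estimated counts and TPM for 196354 transcripts. The deposited estimated counts need not be whole, and the deposited TPM values are scaled for length and depth and sum to 1000000 per library. No strand setting is stated, and reads of a gene and its overlapping or antisense partner may be mixed.

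Of these transcripts, 181857 had an identifier in GENCODE 29 (GRCh38). Unmatched ones held 5.12% to 5.47% of the estimated counts and were left out. Estimated counts were summed per gene, rounded, and scaled by TMM (edgeR 4.0.16) over genes whose mean count reached 10. Genes were measured where the mean count reached 50. No count test was run, because 1 library per group leaves no replicates. Intervals are 95% delta-method intervals from counts. The counting rule was run on simulated Poisson counts with planted changes. These counts hold no spread between cultures and no error of transcript assignment, so the run checks the calculation alone. Nothing states that libraries came from separate experiments.

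The members and gene lists were chosen with earlier results of these data known. The text names the 5 members farthest up and down at 6 and at 24 h, genes past 1.5-fold alike at both times, the 3 highest and lowest mean TPM, the 2 largest line ratios each way at 0 h, the transcript shift and the 2 largest genes of other lists each way at 24 h, some of which are not printed. CHCHD1 and DAP3 were named after their values were seen. Other scalings, filters, pseudocounts, thresholds and member choices were tried, and neighbouring genes were added after seeing the data. Figures used matplotlib 3.10.9.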

Additional observations from a re-analysis of the deposited data

Results flagged for a closer look

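The median change over the 76 genes had opposite signs in the lines at both times under TMM scaling. At 6 h it was 0.12 in tet-ZFP36L1 cells and -0.15 in tet-control cells, an induction difference of 0.313. At 24 h it was -0.13 in tet-ZFP36L1 cells and 0.07 in tet-control cells, an induction difference of -0.21. With plain CPM the 24 h medians had the same sign, at 0.02 in tet-ZFP36L1 and 0.05 in tet-control cells. With 1 library per group, the difference between the lines was not tested. Of the 76 genes, 43 were above 0 in tet-ZFP36L1 and below 0 in tet-control cells at 6 h, and 44 had the reverse at 24 h. The shares of all genes with these signs were not computed.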

How the results depend on the processing

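With 1 library per group, results could not be checked against replicates, and leaving out a library removes the comparison it belongs to. No paired analysis was possible because each group has 1 library and no numbers that pair libraries. Over the alternatives, the 6 h median induction difference was 0.29 to 0.35. The 24 h median was between -0.22 and -0.04, and relative to all genes between -0.22 and -0.14. Of the medians and counts under alternatives, 180 stayed the same within the counting interval or within 1.5 times the count, 16 moved, and in 4 cases a median changed sign.

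With plain CPM, the 24 h median was -0.038 for the set, -0.06 for the large and 0.009 for the small subunit, and the median change within tet-ZFP36L1 was 0.021, so the last 2 changed sign. The ratio of the lines at 6 h, -0.003 here, was 0.045 with plain CPM and 0.084 with TPM. With plain CPM the ratio of the lines at 24 h was -0.312, with 19 genes lower. All-gene medians moved with them, to 0.15 for the 24 h difference. With plain CPM 6 genes were lower and 1 higher at 24 h, and with deposited TPM 5 were lower and 1 higher, with a ratio of the lines of -0.281 and 16 genes lower in it. The split of all genes into lower and higher at 24 h was 12.1% and 20.7% with plain CPM and 13.4% and 18.9% with TPM, against 17.4% and 13.9% here. With a 2-fold threshold, 0 genes were lower (4.69% of all) and 1 was higher (1.6% of all) at 6 h. At 24 h 0 were lower (6.51% of all), with 6 lower in the ratio of the lines (8.32% of all). Requiring the line's own change to pass 1.5-fold as well left 1 gene higher at 6 h. With coding transcripts alone 3 genes were higher at 24 h (16.2% of all), and MRPL30 reversed at 6 h, to -0.001. The cause of these shifts was not tested, except that a stricter threshold passes fewer genes. Depth limits single genes: the median half-width of a counting interval was 0.17, so smaller differences lay within counting error in a typical gene. The spread between cultures is not part of it and could not be measured with 1 library per group. The half-width is therefore not a limit of detection.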
